A study of Mus musculus with 11 samples.

Results

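The miR-30 products described here were mmu-miR-30b-5p, mmu-miR-30c-5p, mmu-miR-30d-5p, mmu-miR-30e-5p and the opposite arms mmu-miR-30d-3p and mmu-miR-30e-3p, in CD8+ T cells of the mouse spleen (the prefix mmu, for mouse, is left out from here on). They were chosen by name, without miR-30a and miR-30c-2-3p, and filled 7 of the 2128 rows of the deposited table, since miR-30c-5p stood on the rows of both of its hairpins. Its rows held identical values and were entered once, which left 6 rows. All 6 passed the filter on low counts and were among the 545 rows tested. Cells were CD4- CD8+ CD49dlo GFP+ and were separated by CD44 into "stamped TN" (true naive, CD44lo) and "stamped VM" (virtual memory, CD44hi) cells, each from mice labelled clean or dirty. Of the 11 libraries 2 were of TN cells from clean mice (Clean_TN, replicates 2 and 3). The groups Clean_VM, Dirty_TN and Dirty_VM each held 3. Virtual memory cells carry a memory phenotype without having met foreign antigen. The labels define neither dirty nor stamped, strain and age are not given in the sources used here, and nothing says that replicates came from separate animals, so p-values measure the spread between these libraries.

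A miRNA hairpin is cut into a duplex, and a strand of either arm, 5p or 3p, can be loaded into Argonaute, where bases 2 to 8 (the seed) pair with target mRNAs. The miR-30 family is made from hairpins in several clusters, and its 5p arms share a seed, so that they are predicted to bind the same target sites. Known targets include Snai1, which encodes a transcription factor of the epithelial to mesenchymal transition, and the Notch ligand gene Dll4.

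The sequences below are those of the members with an entry in the RefSeq table (3 of 6 matched, GRCm38.p6), with both arms of miR-30a for comparison, because they show which reads can be told apart. They run 5′ to 3′ and the seed is in capitals.
miR-30c-5p: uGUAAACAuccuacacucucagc
miR-30e-5p: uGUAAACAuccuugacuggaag
miR-30a-5p: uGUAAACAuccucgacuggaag
miR-30e-3p: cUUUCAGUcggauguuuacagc
miR-30a-3p: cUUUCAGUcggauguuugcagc
miR-30e-5p and miR-30a-5p were 22 bases long and differed by 1 base, U13C (the base of miR-30e first, counted from 1 at the 5′ end). miR-30e-3p and miR-30a-3p also differed by 1 base, A18G. The 3p arms had a seed of their own, UUUCAGU, against GUAAACA in the 5p arms shown.

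The hairpin of miR-30e is printed with both mature arms in capitals, since the results on its arms turn on them.
mir-30e hairpin: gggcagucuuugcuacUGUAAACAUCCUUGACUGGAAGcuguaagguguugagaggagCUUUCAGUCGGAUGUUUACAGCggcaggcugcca
It lies at chr4:120772606-120772697 on the minus strand (GRCm38.p6), in an intron of Nfyc, which encodes a subunit of the transcription factor NF-Y. The mir-30c-1 hairpin lies in the same gene, also in an intron, at chr4:120769534-120769622, with 2983 bases between them. The second source of miR-30c-5p, mir-30c-2, lies on chromosome 1 at 23291701 to 23291784, in an exon of the lincRNA Gm27028. The hairpins of miR-30b and miR-30d lie on chromosome 15, minus strand, at 68337415 to 68337510 in an exon of Gm26621 and at 68341208 to 68341289 in an exon of the lincRNA Gm20732, with 3697 bases between them (GENCODE M21).

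The deposited values were estimated counts, with library totals from 2614396 to 16312004. On the counts-per-million scale (CPM) a count of 3 corresponded to 0.1839 to 1.147, far under the level of every member, and such limits cover counting error only. The table divided reads that fit several miRNAs. The sum of miR-30b-5p and both rows of miR-30c-5p was whole within 0.02 in 11 of 11 libraries, and with a single row of miR-30c-5p it was whole in 1. Levels of miR-30c-5p are therefore given as the sum of both rows, and its fold changes are those of 1 row. Values of the other members were also fractional in some libraries: miR-30e-5p in 6 of 11, miR-30e-3p and miR-30d-3p in 4 each and miR-30d-5p in 3. With which miRNAs they shared reads was not tested. Of the mature lymphocyte miRNAs listed as markers (miR-150-5p, miR-142a-3p, miR-142a-5p and miR-342-3p) 4 of 4 had counts, and together they reached 137201 to 145521 CPM in Clean_TN, 83596 to 110188 in Clean_VM, 73917 to 140523 in Dirty_TN and 86391 to 101360 in Dirty_VM. miRNAs of other cells were lower than these, with 0.268 to 3.61 CPM for both myeloid miRNAs together, 15.3 to 53 for the endothelial ones, 47.2 to 130 for 5 stromal ones, 59.6 to 260 for 4 erythroid ones, 870 to 2770 for 4 hepatocyte and muscle ones and 2167 to 3756 for 7 epithelial ones. The hepatocyte and muscle and the epithelial sums were of the order of miR-30e-3p, miR-30e-5p and miR-30b-5p, with means of 2033, 1419 and 1092 CPM. No listed marker was at 0 in all libraries.

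In the overall profile the nearest library shared the subset more often than the environment. Over 263 miRNA rows with a mean of 10 CPM or more, Dirty_TN replicate 3 and Clean_TN replicate 2 were the closest of all 55 pairs of libraries (root mean square difference 0.28 on the log2 scale). Clean_TN replicate 2 and its own group partner differed by 0.52, and Dirty_TN replicate 3 differed from Dirty_TN replicates 1 and 2 by 0.74 and 0.87. The nearest library was of the same subset for 11 of 11 libraries and of the same group for 5. The other 6 were nearest to a library from the other environment, which in each case lay on the same side of a total of 5000000. Among VM cells, Clean_VM replicate 1 and Dirty_VM replicate 2 differed by 0.42, less than either did from its own group, and Dirty_VM replicate 3 was nearer to Clean_VM replicates 2 and 3 (0.57 and 0.59) than to Dirty_VM replicates 1 and 2 (0.65 and 0.68). Results that rest on Dirty_TN replicate 3 are given with and without it, and other libraries are named where leaving them out changed a call.

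miR-30d-5p was the most abundant of the 6 products, at 16341 and 16140 CPM in Clean_TN, 16229, 10950 and 16843 in Clean_VM, 24476, 16914 and 16041 in Dirty_TN, and 10715, 14663 and 12651 in Dirty_VM. Its highest value was that of Dirty_TN replicate 1, and the libraries of clean TN and VM cells overlapped. miR-30c-5p came next, with 12005 and 10767 CPM in Clean_TN, 9905, 8660 and 8183 in Clean_VM, 7958, 8256 and 10899 in Dirty_TN, and 11910, 13325 and 15684 in Dirty_VM. Its level lay below that of miR-30d-5p in 9 of 11 libraries and above it in Dirty_VM replicates 1 and 3, so the order of these neighbours depended on the library.

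The next 3 products were about an order of magnitude less abundant than miR-30d-5p. As means of the 4 group means, miR-30e-3p stood at 2033 CPM, miR-30e-5p at 1419 and miR-30b-5p at 1092. miR-30e-3p exceeded miR-30e-5p in 8 of 11 libraries, and miR-30e-5p exceeded miR-30b-5p in 8, so neither order held throughout. miR-30d-3p, the passenger arm of the most abundant member, stood at 15.4 to 29.7 CPM and was below miR-30b-5p in 11 of 11 libraries by a ratio of at least 20.1. These levels compare miRNAs of nearly equal length, and adapter ligation can favour some sequences over others.

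**Figure D1:**
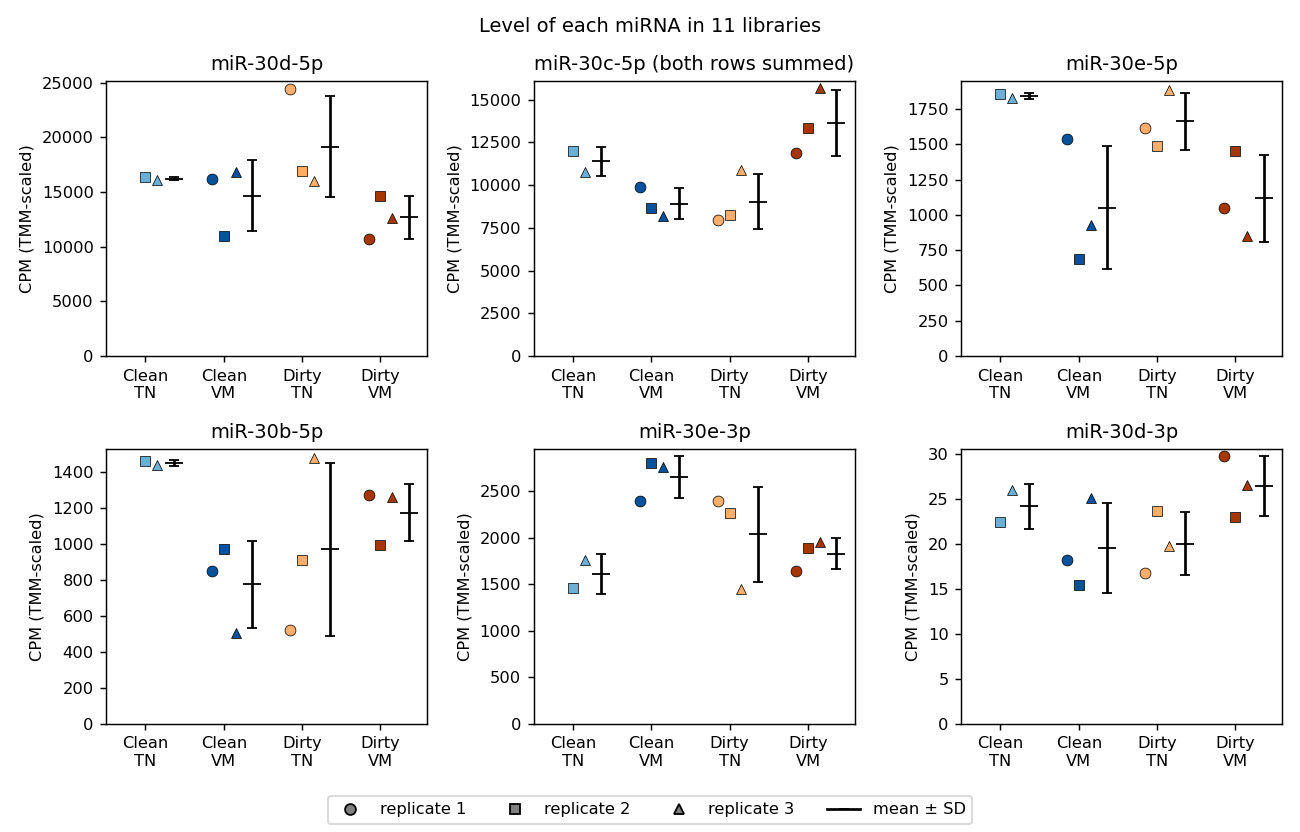
Level of each miR-30 product in CPM on TMM-scaled totals (vertical axes from 0) in the 4 groups; each symbol is 1 library, shaped by replicate number, and the bar beside it is the mean ± SD of the group. miR-30e-5p sits at 1830 CPM or above in both Clean_TN libraries and at 1536 or below in all VM libraries, while the Dirty_TN libraries of miR-30b-5p spread from 522 to 1478.

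Together the 5p arms of miR-30b, c, d and e came to 2.13% to 3.46% of the TMM-scaled total. This sum holds both rows of miR-30c-5p, whereas the total holds identical rows once, so the value is not a strict share. In TN cells their sum reached 30919 ± 1054 CPM (SD, n = 2) with clean mice and 30816 ± 3529 (n = 3) with dirty mice. In VM cells it reached 25415 ± 3735 and 28608 ± 3171 (n = 3 each). In clean mice the sum was lower in every VM library (21270 to 28520) than in either TN library (30174 and 31664), and in dirty mice the ranges overlapped. The makeup of this pool, miR-30a-5p included, varied more. miR-30d-5p formed 52% ± 1.26 (SD) of it in Clean_TN, 54.8% ± 5.46 in Clean_VM, 61% ± 8.75 in Dirty_TN and 43.1% ± 2.93 in Dirty_VM. miR-30c-5p formed 36.4% ± 1.6, 33.9% ± 5.07, 29.3% ± 6.45 and 46.5% ± 4.26 in the same order. miR-30c-5p thus held its largest share in Dirty_VM, the group in which miR-30d-5p held its smallest. Both fill most of the pool, so a larger share of one goes with a smaller share of the other. In CPM the Dirty_VM means, 13640 for miR-30c-5p and 12676 for miR-30d-5p, were also the highest and the lowest of the 4 groups. miR-30e-5p formed 2.75% to 6.17%, miR-30b-5p 1.49% to 4.98% and miR-30a-5p 0.888% to 5.49% of the pool.

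**Figure D2:**
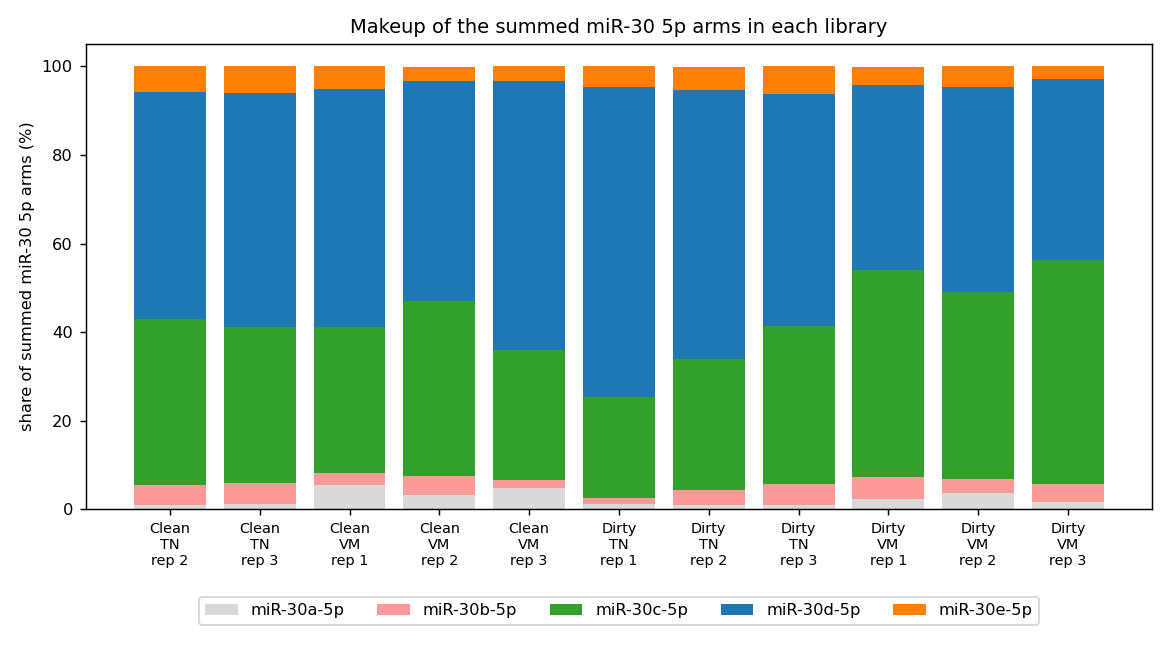
Share of each miR-30 5p arm in the sum of all 5, in percent, with 1 stacked bar per library; both hairpin rows of miR-30c-5p are included. miR-30d-5p and miR-30c-5p fill most of every bar, and miR-30c-5p reaches 42.2% to 50.7% in the Dirty_VM libraries.

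Whether VM cells differ from TN cells in either environment was asked first. Averaged over clean and dirty mice, miR-30e-5p was lower in VM cells, at 0.618 times the TN level, which is -0.69 ± 0.20 in log2 units (SE; edgeR quasi-likelihood, adjusted p = 0.0255). It was the single member of 6 past the threshold, where 23.7% of all 545 rows were, 11.4% higher and 12.3% lower in VM cells. Its level was 1858 and 1830 CPM in Clean_TN, 1536, 689 and 927 in Clean_VM, 1616, 1488 and 1886 in Dirty_TN, and 1048, 1454 and 851 in Dirty_VM. Every VM library lay below every TN library of the same environment, as in 9.36% of all rows; with the rows in which all lay above, 16.9% did not overlap. DESeq2 also called it (adjusted p = 0.00452), with 26.4% of all rows. The other 5 members did not pass, miR-30d-5p coming closest at -0.37 ± 0.16 (edgeR adjusted p = 0.122, and 0.0461 at -0.48 without Clean_VM replicate 3). The median log2 change was -0.13 over the members and 0.09 over all rows.

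The depth of the library moved with miR-30e-5p in VM cells. The VM libraries with totals above 5000000 stood at 689, 927 and 851 CPM and those with lower totals at 1536, 1048 and 1454, without overlap. The share of all rows that separated by depth in this way was not counted. In the overall profile, too, nearest libraries from different environments were of like depth. In the 6 deeper libraries alone the averaged log2 change was -1.22 (adjusted p = 0.0112), and in the 5 shallower ones -0.35 (adjusted p = 0.607), with 2 and 1 residual degrees of freedom. With depth class as a term over all 11 libraries it was -0.77 (adjusted p = 0.0091). The summed lymphocyte markers were also higher in Clean_TN than in Clean_VM without overlap, and their part was not tested. Leaving out Clean_TN replicate 2 or 3, or Dirty_VM replicate 1 or 3, ended the call, with adjusted p-values of 0.0845, 0.0721, 0.0513 and 0.0691, and the log2 change stayed between -0.88 and -0.61 over all libraries left out in turn. Without Dirty_TN replicate 3 it was -0.64 (adjusted p = 0.0396, 24.4% of all rows past the threshold).

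In clean mice alone miR-30e-3p was higher in VM cells, the only member of 6 past the threshold (17.4% of all rows were, 9.72% higher and 7.71% lower). It stood at 1459 and 1764 CPM in Clean_TN and at 2392, 2807 and 2762 in Clean_VM, a log2 change of 0.72 ± 0.23 (edgeR adjusted p = 0.0466). The groups did not overlap, and its partner arm from the same hairpin pointed the other way, with -0.81 ± 0.30 for miR-30e-5p (adjusted p = 0.0856). miR-30b-5p stood at 1460 and 1437 CPM in Clean_TN against 850, 972 and 503 in Clean_VM, a change of -0.90 ± 0.36 in log2 units (adjusted p = 0.103), again without overlap. The value for miR-30c-5p was -0.35 ± 0.20 (adjusted p = 0.238). For 4 of 6 members the clean TN and VM libraries did not overlap, as for 52.7% of all rows. miR-30d-5p and miR-30d-3p overlapped and had log2 changes of -0.15 ± 0.24 and -0.30 ± 0.27.

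The call of miR-30e-3p was a narrow one. It passed in 2 of 10 other settings and in 3 of 11 fits without 1 library, namely without Clean_VM replicate 1 and without Dirty_TN replicate 1 or 3, and adjusted p-values reached 0.842 and 0.27. Without Clean_TN replicate 2 the log2 change was 0.59, and without Clean_TN replicate 3 it was 0.86. The call also ended without Clean_VM replicate 2 or 3, Dirty_TN replicate 2 or any Dirty_VM replicate, with changes between 0.64 and 0.72. DESeq2 called 3 members, miR-30b-5p (adjusted p = 0.0496), miR-30e-5p (0.0334) and miR-30e-3p (0.0187), with 21.5% of all rows. By edgeR miR-30b-5p passed without Dirty_TN replicate 1 (-0.92, adjusted p = 0.0297) or 3 (-0.90, adjusted p = 0.0354, 20.7% of all rows), and miR-30e-5p, which also passed in 5 of 10 other settings, without Clean_VM replicate 1 (-1.13, adjusted p = 0.0186) or Dirty_VM replicate 2 (-0.84, adjusted p = 0.0457). The summed markers of other cells moved with it, higher in every Clean_VM than in every Clean_TN library on all lists except the myeloid one: erythroid 59.6 to 76.4 CPM in Clean_TN against 129 to 260 in Clean_VM, hepatocyte and muscle 870 to 1104 against 1233 to 2770, stromal 47.2 to 59.2 against 67.6 to 113, endothelial 18.4 to 19.3 against 21.7 to 47.7, and epithelial 2167 to 2310 against 2411 to 3275. So did miR-30a-3p, which differs from it by 1 base and stood at 102 ± 14.4 CPM (SD, n = 2) in Clean_TN and 655 ± 60.3 (n = 3) in Clean_VM. The part of these in the result was not tested.

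In dirty mice miR-30c-5p was higher in VM cells, 1.51-fold or 0.59 ± 0.18 in log2 units (edgeR adjusted p = 0.0475). It was the only member of 6 past the threshold, where 12.1% of all rows were, 6.24% higher and 5.87% lower. The levels of 11910, 13325 and 15684 CPM in Dirty_VM lay above the 7958, 8256 and 10899 CPM of Dirty_TN. This call ended without any 1 library except Dirty_TN replicate 3, with log2 changes of 0.41 to 0.68 and adjusted p-values of 0.0546 to 0.208. Without Dirty_TN replicate 3 the change was 0.75 (adjusted p = 0.00891), and 16.1% of all rows passed.

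The other members did not pass in dirty mice by edgeR. The log2 difference was -0.59 ± 0.22 for miR-30d-5p (edgeR adjusted p = 0.1) and -0.57 ± 0.27 for miR-30e-5p (adjusted p = 0.205), and for both every Dirty_VM library lay below every Dirty_TN library. With miR-30c-5p this made 3 of 6 members without overlap, against 30.5% of all rows. miR-30d-3p had 0.41 ± 0.25, miR-30b-5p 0.27 ± 0.32 and miR-30e-3p -0.16 ± 0.20. The value of miR-30b-5p rested on Dirty_TN replicate 1, at 522 CPM, and was -0.12 without it. Without Dirty_TN replicate 3 miR-30e-5p had -0.47 (edgeR adjusted p = 0.315). The value of miR-30d-5p passed without Dirty_TN replicate 3 (-0.71, edgeR adjusted p = 0.0392), Clean_VM replicate 2 (-0.63, 0.0467) or Dirty_VM replicate 2 (-0.76, 0.0479). By DESeq2 miR-30d-5p (adjusted p = 0.0479) passed beside miR-30c-5p, with 16.1% of all rows.

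The rest of the family was set beside these members. Of 5 tested products of other miR-30 arms 3 were higher in VM cells in clean and in dirty mice, miR-30a-5p, miR-30a-3p and miR-30c-2-3p, all from the locus on chromosome 1. miR-30a-5p had log2 changes of 1.83 ± 0.41 in clean and 1.21 ± 0.35 in dirty mice (edgeR adjusted p = 0.00982 and 0.0365). The median over these 5 was 1.83 in clean and 1.21 in dirty mice, against -0.33 and 0.06 over the members. miR-30c-5p, which the table assigns in equal parts to mir-30c-1 and mir-30c-2, had log2 changes of -0.35 ± 0.20 in clean and 0.59 ± 0.18 in dirty mice, against 3.31 ± 0.37 and 2.22 ± 0.30 for miR-30c-2-3p. miR-30c-1-3p, the opposite arm from the Nfyc intron, had 0.16 ± 0.21 and 0.17 ± 0.19. miR-384-5p, miR-384-3p and miR-30f were not among the tested rows.

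**Figure D3:**
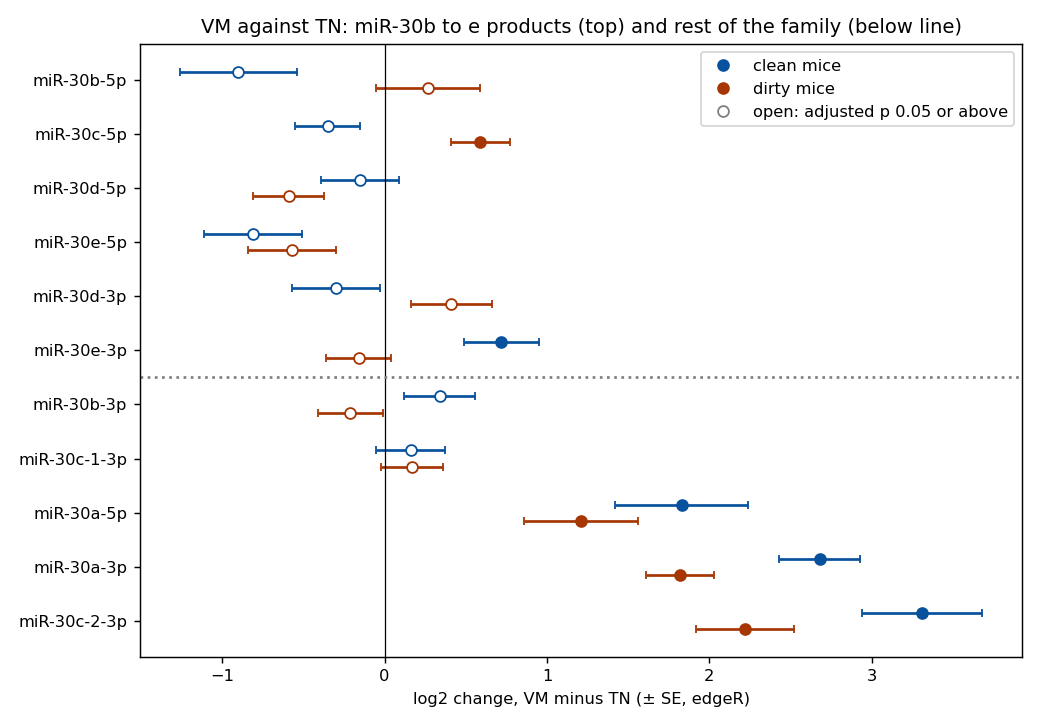
Log2 change of VM against TN cells ± SE (horizontal axis) in clean and dirty mice for the 6 miR-30b to e products above the dotted line and the 5 other tested family products below it; filled symbols have an adjusted p under 0.05. From the chromosome 1 locus miR-30a-5p, miR-30a-3p and miR-30c-2-3p lie between 1.21 and 3.31. The 6 members, with miR-30c-5p, which that locus shares with chromosome 4, lie between -0.90 and 0.72.

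The arms of a hairpin can be compared within a library without scaling. The log2 ratio of miR-30e-5p to miR-30e-3p was 0.35 and 0.05 in Clean_TN, -0.64, -2.03 and -1.58 in Clean_VM, -0.57, -0.61 and 0.38 in Dirty_TN, and -0.64, -0.38 and -1.20 in Dirty_VM. The 5p arm was thus the more abundant one in both Clean_TN libraries and in Dirty_TN replicate 3 and the less abundant one in the other 8. The VM minus TN difference was -1.61 in clean mice, where the groups did not overlap, and -0.48 in dirty mice, where they did. How often ratios of other hairpins separate was not counted, and in levels 52.7% of all rows did not overlap in clean mice. Over both environments the difference in the miR-30e ratio was -1.05 (two-sided exact permutation test within environment, p = 0.05, adjusted p = 0.2 over 4 tests, smallest possible p 0.005). Without Dirty_TN replicate 3 it was -0.15 in dirty mice and -0.88 over both (exact permutation test, adjusted p = 0.32). Within the deeper libraries the difference was -1.63 and within the shallower ones -0.30.

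For miR-30d the ratio of the 5p to the 3p arm was 358 to 1460, so nearly all counts of the hairpin were of the 5p arm. In log2 units it was 9.51 and 9.28 in Clean_TN, 9.79, 9.47 and 9.39 in Clean_VM, 10.51, 9.47 and 9.67 in Dirty_TN, and 8.49, 9.30 and 8.90 in Dirty_VM. The Dirty_VM libraries lay below those of Dirty_TN and of Clean_VM without overlap. For levels of single rows, 30.5% and 21.1% of all rows did not overlap in these comparisons. Ratios of other hairpins were not computed. The VM minus TN difference was 0.16 in clean mice, where the groups overlapped, and -0.99 in dirty mice. Over both environments, which had opposite signs, it was -0.42 (by the same exact permutation test p = 0.18, adjusted p = 0.36). Without Dirty_TN replicate 3 it was -1.10 in dirty mice and -0.47 over both. Within the deeper libraries the difference over both was -0.63 and within the shallower ones -0.04. Dirty against clean mice differed by 0.10 for miR-30e (exact permutation p = 0.745, adjusted p = 0.8) and by -0.08 for miR-30d (exact permutation p = 0.8, adjusted p = 0.8). These averages joined subsets of opposite sign. For miR-30e the difference was -0.47 in TN cells and 0.67 in VM cells. Without Dirty_TN replicate 3 the TN difference was -0.79, and the dirty and clean TN libraries then did not overlap. For miR-30d it was 0.49 in TN cells (0.60 without Dirty_TN replicate 3) and -0.65 in VM cells. None of these differences was tested separately.

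**Figure D4:**
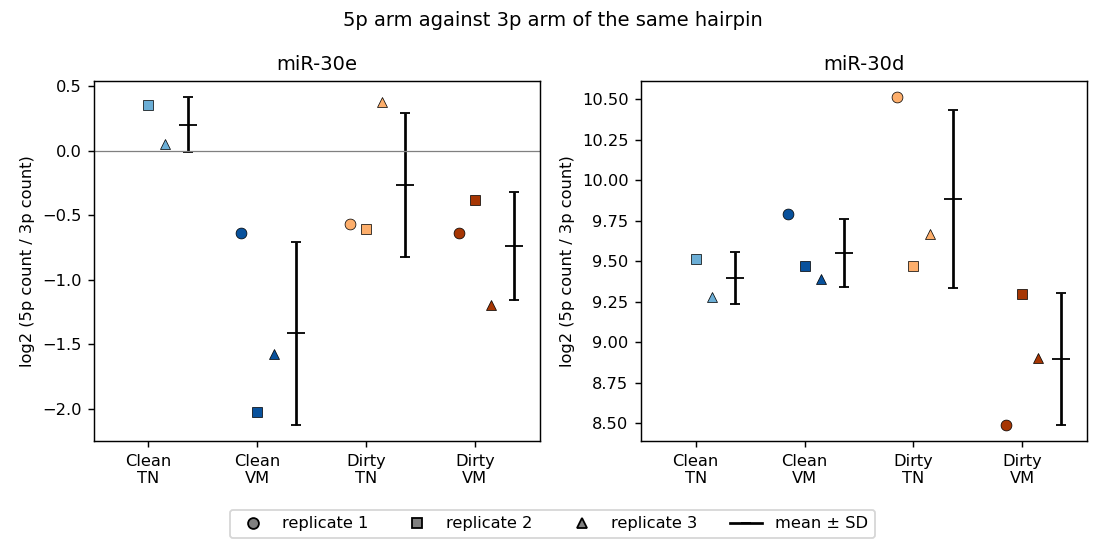
Log2 ratio of the 5p to the 3p count of miR-30e and miR-30d (vertical axes, which do not start at 0) in the 4 groups; each symbol is 1 library and the bar is the mean ± SD. For miR-30e both Clean_TN libraries and Dirty_TN replicate 3 lie above 0, and Clean_VM replicates 2 and 3 are lowest at -2.03 and -1.58.

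Dirty and clean mice were then compared within each subset. In TN cells no member passed (edgeR, 0 of 6 also at an unadjusted p under 0.05, where 6.97% of all rows were, 0 of 6 by DESeq2 with 0.55% of all rows, 0% of all rows past the threshold by edgeR). Log2 changes lay between -0.58 ± 0.36 for miR-30b-5p and 0.34 ± 0.23 for miR-30e-3p. The clean and dirty TN libraries overlapped for all 6 members, whereas 23.3% of all rows did not overlap. Without Dirty_TN replicate 3 still no member passed, where 6.24% of all rows did, and miR-30b-5p had -1.02 (edgeR adjusted p = 0.0851). Without Dirty_TN replicate 1 it had -0.30. The 3 Dirty_TN libraries were spread widely: miR-30b-5p stood at 522, 912 and 1478 CPM against 1460 and 1437 in Clean_TN.

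In VM cells no member passed by edgeR either, with 0% of all rows past the threshold. At an unadjusted p under 0.05 there were 2 of 6 members and 14.9% of all rows, and DESeq2 called 1 member. That one was miR-30c-5p, at 0.61 ± 0.18 in log2 units by edgeR (adjusted p = 0.164) and 0.56 by DESeq2 (adjusted p = 0.0454, 4.04% of all rows past the threshold). Without Dirty_TN replicate 3 edgeR also called it (0.61, adjusted p = 0.0458, 3.67% of all rows). miR-30b-5p had 0.60 ± 0.33 (edgeR adjusted p = 0.424) and miR-30e-3p -0.54 ± 0.20 (adjusted p = 0.209). For these 3 of 6 members the clean and dirty VM libraries did not overlap, as for 21.1% of all rows. Averaged over both subsets no member passed (edgeR, 0 also at an unadjusted p under 0.05, where 5.14% of all rows were, and 0 by DESeq2, 0% of all rows by edgeR and 0.183% by DESeq2), and log2 changes lay between -0.10 and 0.14.

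The interaction is the VM minus TN change of dirty mice less that of clean mice. No member passed by edgeR (0% of all rows), 3 of 6 had an unadjusted p under 0.05, as did 17.1% of all rows, and 2 passed by DESeq2 (miR-30c-5p and miR-30e-3p), where 7.52% of all rows did. The interaction was 0.95 ± 0.27 for miR-30c-5p (edgeR adjusted p = 0.11), 1.18 ± 0.48 for miR-30b-5p (adjusted p = 0.24) and -0.88 ± 0.30 for miR-30e-3p (adjusted p = 0.194). Without Dirty_TN replicate 3 these became 1.10 (adjusted p = 0.00919), 1.62 (adjusted p = 0.0225) and -1.07 (adjusted p = 0.0106). All 3 then passed, where 11% of all rows did. miR-30e-5p, with 0.24 ± 0.41, and both arms of miR-30d, with -0.45 ± 0.32 and 0.71 ± 0.37, did not pass in either fit. Reads were divided among miR-30b-5p and miR-30c-5p, so their interactions are not independent of each other.

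Correlations between members across the 11 libraries, which share 4 groups and 1 scaling, had both signs. On the log2 scale Pearson's r was 0.69 between miR-30b-5p and miR-30c-5p, from different chromosomes. Reads were divided among these rows, as given above, so their counts are not independent, and the part of this in the correlation was not tested. Between miR-30b-5p and miR-30d-5p, whose hairpins neighbour each other, r was -0.51. It was 0.64 between miR-30d-5p and miR-30e-5p. miR-30e-5p and miR-30e-3p of the same hairpin had r = -0.56. Of 252 rows outside the family with a mean of 10 CPM or more, the one most like miR-30e-5p was miR-3964 (r = 0.96, n = 11 libraries), followed by both rows of miR-19b-3p (r = 0.94 each). miR-30e-3p was most like miR-106b-3p (r = 0.97), miR-1964-3p and miR-151-5p (r = 0.94 each). miR-30b-5p was most like miR-339-5p (r = 0.92), miR-342-3p and miR-350-3p (r = 0.90 each), of which miR-342-3p is on the lymphocyte list. For miR-30c-5p they were miR-1291 (r = 0.91), miR-26b-3p and miR-221-3p (r = 0.88 each), for miR-30d-5p miR-1839-5p (r = 0.88), miR-27b-5p (r = 0.86) and miR-192-5p (r = 0.84), and for miR-30d-3p miR-1191a (r = 0.80), miR-140-5p (r = 0.76) and miR-361-3p (r = 0.65).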

How the data were processed

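Splenic CD8+ T cells were selected on CD8a microbeads, 10000 per sample were sorted at over 95% purity, and their small RNA was cloned with a NEBNext kit, per the labels' protocols. The authors deposited estimated counts (expected counts, not scaled) per mature miRNA and hairpin; 88.65% of values were whole within 0.004. The submitters' processing notes name the build mm10, and the aligner and counter are not given in the sources used here. Identical rows of a miRNA were kept once (120 rows dropped, 2008 left), and counts were rounded. Rows kept by filterByExpr (545 of 524 miRNAs, 99.99% of counts) were fitted in 1 model over 11 libraries with edgeR 4.0.16 (TMM scaling, 1 mean per group, robust quasi-likelihood test), and p-values were adjusted by Benjamini-Hochberg over the 545 rows at 0.05. Each SE was obtained from the log2 change and its F statistic (|log2 change|/√F). Levels are CPM on TMM-scaled totals. Arm ratios added 0.5 to each count and were tested by permuting libraries within environment or subset (200 arrangements). All members are named, with the 3 rows of highest Pearson's r to each (log2 CPM, prior count 2). Alternatives were DESeq2 1.42.0, its size factors, library totals, no filter beyond 1 count, rows summed per miRNA, replicate blocks, depth class (totals above 5000000), a pseudocount of 1 for arm ratios, and each library left out. Members and lists were chosen with earlier results of these data known.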

Additional observations from a re-analysis of the deposited data

Results flagged for a closer look

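miR-30c-5p is listed because its VM and TN libraries separated in opposite directions in the 2 environments: every Clean_VM library lay below every Clean_TN library and every Dirty_VM library above every Dirty_TN library. Of all rows, 52.7% did not overlap in clean mice and 30.5% in dirty mice, in either direction. The share of rows that separated in opposite directions was not counted. The log2 changes were -0.35 ± 0.20 and 0.59 ± 0.18, and the interaction was 0.95 ± 0.27 (edgeR quasi-likelihood, unadjusted p = 0.0036, adjusted p = 0.11), so the difference itself did not pass the threshold. Over the alternatives its adjusted p lay between 0.00886 (DESeq2) and 0.92 (deeper libraries only). Groups of 2 or 3 libraries were too small for a check for single outlying libraries.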

How the results depend on the processing

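The count of members past the threshold was small throughout, so 1 call more or less moved it, and where no cause is given the cause was not tested. For VM against TN in clean mice it was 1 and became 3 with DESeq2, 2 without a filter, and 0 with a replicate block, with depth class as a term, in the deeper and in the shallower libraries alone; leaving out 1 library gave 0 to 2. The member called was not always miR-30e-3p: with library totals, rows summed per miRNA, the replicate block within environment and without Dirty_VM replicate 2 it was miR-30e-5p alone, and without a filter miR-30b-5p and miR-30e-5p. Over all rows, 95 were called, and 117 with DESeq2, 108 of 1163 without a filter, 56 with the block, 95 with depth class, and 30 and 27 in the deeper and shallower libraries. In dirty mice it was 1 and became 2 with DESeq2 and 0 with library totals, without a filter, with either replicate block and in the deeper or shallower libraries, and 0 to 2 without 1 library. Over all rows, 66 were called, and 88 with DESeq2, 62 with library totals, 66 of 1163 without a filter, 53 and 49 with the blocks, and 11 and 17 in the deeper and shallower libraries. The average over environments went from 1 to 2 with library totals (135 of all rows against 129), to 0 in the shallower libraries (41) and to 0 to 2 without 1 library. Dirty against clean in VM cells went from 0 to 1 with DESeq2 (22 of all rows against 0) and to 0 to 1 without 1 library. The interaction went from 0 to 2 with DESeq2, to 1 without a filter and to 0 to 3 without 1 library, while the count over all rows went from 0 to 41 with DESeq2, to 30 without a filter and to 60 without Dirty_TN replicate 3. The subset fits hold fewer libraries.

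Sign changes of single members were looked for in every contrast except dirty against clean averaged over subsets. None of the values found to change sign was called. miR-30d-5p in clean mice (-0.15) ranged from -0.32 to 0.01 over the libraries left out in turn, and its dirty against clean value for TN cells (0.24) from -0.01 to 0.35. The former was positive without Clean_VM replicate 2 and the latter negative without Dirty_TN replicate 1. miR-30b-5p in dirty mice (0.27) ranged from -0.12, without Dirty_TN replicate 1, to 0.71. miR-30d-3p averaged over environments (0.06) was -0.02 with library totals, -0.27 in the shallower libraries, and -0.11 to 0.12 without 1 library (negative without Clean_VM replicate 3 or Dirty_TN replicate 1), and miR-30e-3p (0.28) was -0.06 in the shallower libraries. miR-30e-5p, dirty against clean in VM cells (0.09), was -2.6e-03 with depth class as a term, -0.27 in the shallower libraries, and -0.24 to 0.30 without 1 library (negative without Clean_VM replicate 2 or 3 or Dirty_VM replicate 2). Its interaction (0.24) was -0.03 to 0.52, negative without Dirty_VM replicate 2. The arm ratio of miR-30e, VM against TN, was -1.63 in the deeper and -0.30 in the shallower libraries. Dirty against clean it was -0.27 for miR-30e in the shallower libraries and -0.06 to 0.30 without 1 library, and 0.03 for miR-30d in the deeper libraries and -0.24 to 0.02 without 1 library.

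Deviations of same-numbered TN and VM libraries from their group means had correlations of both signs (r = 0.25 and -0.26 in clean, -0.46, 0.24 and 0.42 in dirty mice). With so few libraries per group the deviations depend on each other, so the check cannot show whether same-numbered libraries shared a source. With the replicate block miR-30e-3p in clean mice had an edgeR adjusted p of 0.0983, miR-30c-5p in dirty mice 0.0959 and miR-30e-5p averaged over environments 0.0374. Scaling to library totals moved the median log2 change of all rows from 0.082 to -0.127 in clean mice, from 0.158 to -0.025 between dirty and clean TN cells, from 0.081 to 0.191 for VM cells, and the median interaction from -0.045 to 0.236. Of the members' directions in the contrasts looked at for sign changes, it turned that of miR-30d-3p above.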

Other observations

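Values of miR-30b-3p and miR-30c-1-3p, which are 3p arms outside the 6 members, are given here. miR-30b-3p stood at 135 and 163 CPM in Clean_TN, 177, 184 and 204 in Clean_VM, 207, 202 and 146 in Dirty_TN, and 137, 168 and 173 in Dirty_VM. Across the 11 libraries it varied with miR-30e-3p (Pearson's r = 0.88 on the log2 scale) and against miR-30b-5p, the other arm of its own hairpin (r = -0.83); the libraries share 4 groups and 1 scaling. Its log2 change of VM against TN cells was 0.34 ± 0.22 in clean and -0.21 ± 0.20 in dirty mice, and neither passed (edgeR adjusted p = 0.307 and 0.549). miR-30c-1-3p had the smallest range of the 11 tested family products, with its highest library 1.46 times its lowest.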
